A study of Mus musculus with 6 samples.

Results

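Isolated UTX sites are the regions of UTX CUT&Tag signal that stand far from any other listed site on their chromosome. They were taken as the sites on chromosomes 1 to 19 with no other listed site starting within 250 kb on either side. Of 6739 sites in the authors' deposited table, 6630 lay on these chromosomes and 616 met this rule, which uses positions alone. The table holds only sites whose signal differed between the genotypes, so a site that did not differ could lie nearer than 250 kb.

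UTX-deficient cells were 3 samples of sorted progenitor CD8 T cells, Ly108+ CXCR6-, from the pancreatic lymph nodes of NY8.3 mice with a T cell specific deletion of UTX (UTXTCD.NY8.3). They were set against 3 samples of the same sorted population from NOD.NY8.3 mice with intact UTX, called WT in the labels. Both groups carry the NY8.3 transgenic T cell receptor. The sources used here give no age, no driver of the deletion and no statement on single mice or pools, and p-values measure only the spread between these samples. CUT&Tag uses an antibody to guide a transposase, so that DNA next to the bound protein is cut and sequenced.

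UTX, the product of Kdm6a, removes methyl groups from lysine 27 of histone H3, a mark laid down by Polycomb complexes at silent genes. It works within the MLL3 and MLL4 histone methyltransferase complexes at active enhancers and promoters. Strong lineage genes of T cells often carry several regulatory elements over a long domain, while many housekeeping genes have a single promoter rich in CpG dinucleotides.

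Most isolated sites lay at a transcription start, and 6 promoters are printed here because they belong to the strongest and the most remote isolated sites. The promoters of Gsk3b (glycogen synthase kinase 3 beta), Hbp1 (an HMG-box transcription factor) and Lnpep (an aminopeptidase) are those of the 3 highest WT levels among named sites whose own promoter lay under the site. Those of Mettl25 (a methyltransferase-like protein), Manea (a Golgi mannosidase) and Mzt1 (a subunit of the gamma-tubulin ring complex) have the farthest nearest site by the same condition. Each runs 5′ to 3′ on the strand of its gene, 250 bases before and 50 after the RefSeq start, in build GRCm38.p6, which is the assembly of mm10. The coordinates are chr16:38088751-38089050 (plus strand) for Gsk3b, chr12:31950196-31950495 (minus strand) for Hbp1, chr17:17624440-17624739 (minus strand) for Lnpep, chr10:105841331-105841630 (minus strand) for Mettl25, chr4:26346603-26346902 (minus strand) for Manea and chr14:99046087-99046386 (minus strand) for Mzt1. Capitals mark, on either strand, the letters CGGAA (ETS factors), GGGCGG (KLF and SP factors), CTTTGA (TCF and LEF factors) or CCAAT (NF-Y), the last added after the sequences had been seen.
Gsk3b: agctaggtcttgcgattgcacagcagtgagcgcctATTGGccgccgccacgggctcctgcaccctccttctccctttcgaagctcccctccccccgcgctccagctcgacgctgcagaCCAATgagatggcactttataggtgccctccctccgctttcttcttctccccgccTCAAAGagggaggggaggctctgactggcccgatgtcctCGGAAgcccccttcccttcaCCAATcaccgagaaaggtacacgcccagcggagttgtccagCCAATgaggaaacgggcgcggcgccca
Hbp1: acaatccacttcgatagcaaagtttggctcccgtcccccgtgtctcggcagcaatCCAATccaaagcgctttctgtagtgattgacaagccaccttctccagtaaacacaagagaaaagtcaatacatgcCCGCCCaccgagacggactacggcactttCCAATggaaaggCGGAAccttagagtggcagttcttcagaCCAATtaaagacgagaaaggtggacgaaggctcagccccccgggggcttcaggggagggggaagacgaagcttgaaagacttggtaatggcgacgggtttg
Lnpep: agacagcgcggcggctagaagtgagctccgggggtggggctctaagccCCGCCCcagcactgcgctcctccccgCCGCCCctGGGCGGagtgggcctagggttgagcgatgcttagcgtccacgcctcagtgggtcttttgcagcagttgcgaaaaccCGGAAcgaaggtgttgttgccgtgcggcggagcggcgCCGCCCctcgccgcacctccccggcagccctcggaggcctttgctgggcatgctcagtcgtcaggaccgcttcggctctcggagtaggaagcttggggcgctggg
Mettl25: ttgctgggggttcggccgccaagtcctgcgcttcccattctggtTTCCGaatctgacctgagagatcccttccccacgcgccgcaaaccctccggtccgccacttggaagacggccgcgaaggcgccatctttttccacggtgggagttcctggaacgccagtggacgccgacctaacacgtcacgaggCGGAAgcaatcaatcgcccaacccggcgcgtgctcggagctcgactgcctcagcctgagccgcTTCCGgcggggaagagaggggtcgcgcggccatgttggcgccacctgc
Manea: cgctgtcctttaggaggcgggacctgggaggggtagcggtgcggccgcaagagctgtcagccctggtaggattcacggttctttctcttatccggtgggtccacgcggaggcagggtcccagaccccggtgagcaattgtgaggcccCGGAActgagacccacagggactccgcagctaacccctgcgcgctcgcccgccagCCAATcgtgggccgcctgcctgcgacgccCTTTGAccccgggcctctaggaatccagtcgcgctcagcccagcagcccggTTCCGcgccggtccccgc
Mzt1: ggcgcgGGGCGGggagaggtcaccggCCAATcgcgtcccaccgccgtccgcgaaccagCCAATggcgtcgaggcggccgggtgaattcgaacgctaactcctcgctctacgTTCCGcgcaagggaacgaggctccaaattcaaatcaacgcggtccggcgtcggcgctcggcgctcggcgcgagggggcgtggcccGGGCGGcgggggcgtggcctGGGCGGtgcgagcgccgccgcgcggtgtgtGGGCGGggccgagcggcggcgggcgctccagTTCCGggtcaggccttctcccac

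CGGAA was in all 6 promoters, with 3 matches at Mettl25 and 2 each at Manea and Mzt1, and CCAAT was in 4, with 4 matches at Gsk3b. The printed windows held 16 CpGs at Hbp1, the fewest, and 51 at Mzt1, the most. The part of each 300-base window under the site was 259 bases at Gsk3b, 214 at Hbp1, 202 at Lnpep, 161 at Mettl25, 257 at Mzt1 and all 300 at Manea.

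Over the members, 301 listed promoters lay under an isolated site lower in UTX-deficient cells by at least 150 bases, and 2355 lay under the other sites on these chromosomes. The median promoter under isolated sites had 65.3% GC and 26 CpGs, against 64.3% and 25 under other sites and 53.0% and 7 over all 31396 promoters of chromosomes 1 to 19 without 18. Under 5 CpGs were found in 0.332% of promoters under isolated sites, in 1.74% of those under other sites and in 37.6% of all promoters. The letters GGGCGG were in 84.7% of promoters under isolated sites, 79.6% of those under other sites and 36.0% of all. CGGAA was in 58.5%, 56.1% and 30.1% of the same sets, and CCAAT in 51.8%, 49.2% and 37.3%. The letters TGTGGT of RUNX factors went the other way, at 9.97% of promoters under isolated sites, 12.7% of those under other sites and 16.7% of all. CTTTGA was in 9.63%, 10.3% and 15.9%, GCGCATG (NRF1) in 8.31%, 8.96% and 3.90%, TGACGTC (CRE) in 8.64%, 6.96% and 3.25%, and TGACTCA (AP-1) in 3.32%, 2.76% and 5.26%. Each motif was searched on both strands and matches of different motifs may overlap. These shares describe the letters in a window and were not tested.

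The gene surroundings of isolated sites were sparse, which the rule favours, and more of them than of other sites lay within 1 kb of a gene end. The rule also leaves genes with several sites mostly among the other sites, and what part this plays in the distances was not tested. The median isolated site had 4 protein-coding genes centred within 250 kb (quartiles 2 and 6), against 9 (quartiles 5 and 16) for other sites. At most 2 such genes surrounded 31.3% of isolated and 7.77% of other sites. An end of any annotated gene lay within 1 kb of 431 isolated sites (70.0%) and of 57.3% of other sites. The intermediate distances held fewer isolated sites, with 14.3% at 1 to 10 kb and 10.2% at 10 to 50 kb, against 25.2% and 15.5% of other sites. Distances over 50 kb were again more common, at 34 isolated sites (5.52%) against 2.08% of other sites.

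**Figure D1:**
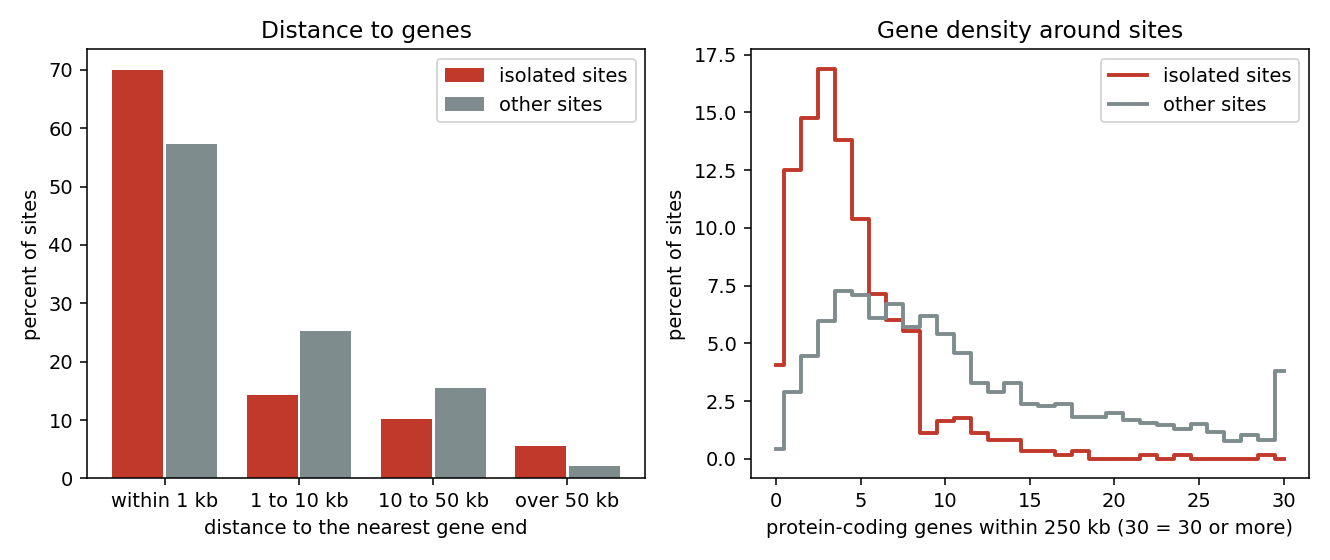
Left, percent of sites by the distance in kb from the middle of the site to the nearest end of any annotated gene, for isolated (red) and other (grey) sites on chromosomes 1 to 19. Right, percent of sites by the number of protein-coding genes centred within 250 kb. Isolated sites are 70.0% within 1 kb of a gene end, against 57.3% of other sites, and their gene counts centre on 4 rather than 9.

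Measured against the gene that the authors assigned, 397 of 609 placed isolated sites (65.2%) lay within 1 kb of an end, with a median distance of 219 bp, against 51.5% and 806 bp for other sites. The site overlapped its gene in 80.8% of isolated and 75.6% of other cases. Transcription starts could be placed for 594 isolated sites, those outside chromosome 18, and 395 of them (66.5%) lay within 1 kb of a listed start, against 52.6% of other sites. At these starts the middle of the site lay upstream in 66.1% of isolated and 64.5% of other sites, at a median position of -59 and -55 bp, negative being upstream. A start of another gene on the opposite strand lay within 1 kb in 103 of the 395 (26.1%), against 22.4% for other sites. One such divergent start belongs to Nudcd2 beside Hmmr, which encodes a spindle-associated hyaluronan receptor.

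Isolated sites had their gene nearly to themselves. The assigned gene carried no other site for 598 of 616 isolated sites (97.1%), against 59.6% of other sites, a share that the rule raises. Assigned genes were longer, with a median of 48941 bp against 26468 bp for other sites. What part the rule plays in this length was not tested. The exceptions include 7 genes with 2 isolated sites each, named here after their values had been seen, which are Atp10a, Celf2, Hivep3, Pcmtd1, Rora, Ust and Wwox. Celf2, a splicing regulator of T cells, had both sites inside the gene, 563904 bp apart. Rora, a nuclear receptor gene, had 2 internal sites 255158 bp apart, with 6, 3 and 0 reads in UTX-deficient cells and 65, 59 and 52 in WT at one, and 0, 1 and 0 in UTX-deficient cells and 32, 18 and 16 in WT at the other.

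Chromosomes differed in the share of their listed sites that was isolated. The rule ties this share to how densely listed sites lie, and no cause of the difference was tested. The share ran from 3.38% of 621 sites on chromosome 11 and 5.38% of 539 on chromosome 7 up to 13.8% of 217 on chromosome 13 and 16.6% of 295 on chromosome 3. Chromosome 2 held the most isolated sites, 52. The distance from an isolated site to its nearest listed site had a median of 467478 bp, a highest value of 5070813 bp at Mettl25, and exceeded 1 Mb for 124 members and 2 Mb for 31. For other sites the median distance was 25688 bp, and the rule itself fixes that this is the lower of the 2 medians. Just inside the limit, at 250480 bp from each other, stood Riok2, a ribosome assembly kinase gene, and Lnpep, followed by Zfp950 at 250733 bp. Just outside it stood Atrnl1 at 249790 bp, Kat6b, a histone acetyltransferase gene, at 249762 bp and Nf2 at 249660 bp.

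Nearly every isolated site carried less UTX signal in UTX-deficient cells. In the authors' deposited table, 604 of the 616 had a lower signal in UTX-deficient cells at an FDR under 0.05 (98.1%, against 99.7% of the whole table) and 12 a higher one (1.95%, against 0.312%). Since each listed site passed that FDR, the shares describe direction alone. Whole reads per library were recovered from the deposited group means, and libraries are given from the deepest to the shallowest of their group because no replicate number comes with them. With the mean of all 6 set to 1, depth was 1.93, 1.07 and 0.00577 in UTX-deficient cells and 1.28, 0.916 and 0.792 in WT. The last UTX-deficient library was close to empty, and 3 reads there equal 519.6 normalized reads, far above the WT level of these sites, so a difference there was not detectable at this depth.

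At the 604 lower sites the median was 2, 3 and 0 reads in the UTX-deficient libraries and 36.5, 28 and 20 in the WT libraries. The highest read number at any of them was 13, 24 and 0 in UTX-deficient cells and 236, 194 and 152 in WT, and the lowest in WT was 12, 9 and 6. Of the 604 sites, 39 had no read in the deepest and 24 none in the middle UTX-deficient library, and 2 had none in any. Per library, the mean over the 604 sites was 1.46, 3.79 and 0 normalized reads in UTX-deficient cells and 36.1, 38.9 and 33.3 in WT. This gives 1.75 ± 1.91 in UTX-deficient cells and 36.1 ± 2.80 in WT (SD, n = 3 each). The groups do not overlap, which the choice of sites by their direction in the same libraries fixes, so no test is given. Without the near-empty library the means were 2.63 ± 1.65 (n = 2) and 36.1 ± 2.80 (n = 3), WT being 13.7-fold higher. Over all 616 isolated sites the UTX-deficient mean became 12.8 ± 17.7 against 35.5 ± 2.74 in WT (SD, n = 3 each), because the near-empty library alone averaged 33.2 through reads at the 12 higher sites. An exact permutation test gave p = 0.2, the smallest possible being 0.1. All 616 sites had been listed for differing between these same libraries, so this p decides nothing about the groups. With the near-empty library left out, the means over the 616 sites were 2.62 ± 1.62 (n = 2) and 35.5 ± 2.74 (n = 3). Limma on the recovered reads, adjusted over 6737 sites, called 604 isolated sites lower and 12 higher with 6 libraries (99.7% and 0.297% of all sites), and 605 lower and 3 higher without the near-empty one (99.7% and 0.0742% of all). Every site tested had passed the deposited FDR on these same libraries, so the calls restate that selection and give no support of their own. The extra lower call without the near-empty library was at the site assigned to Rapgef2, which the authors' deposited table lists as higher.

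**Figure D2:**
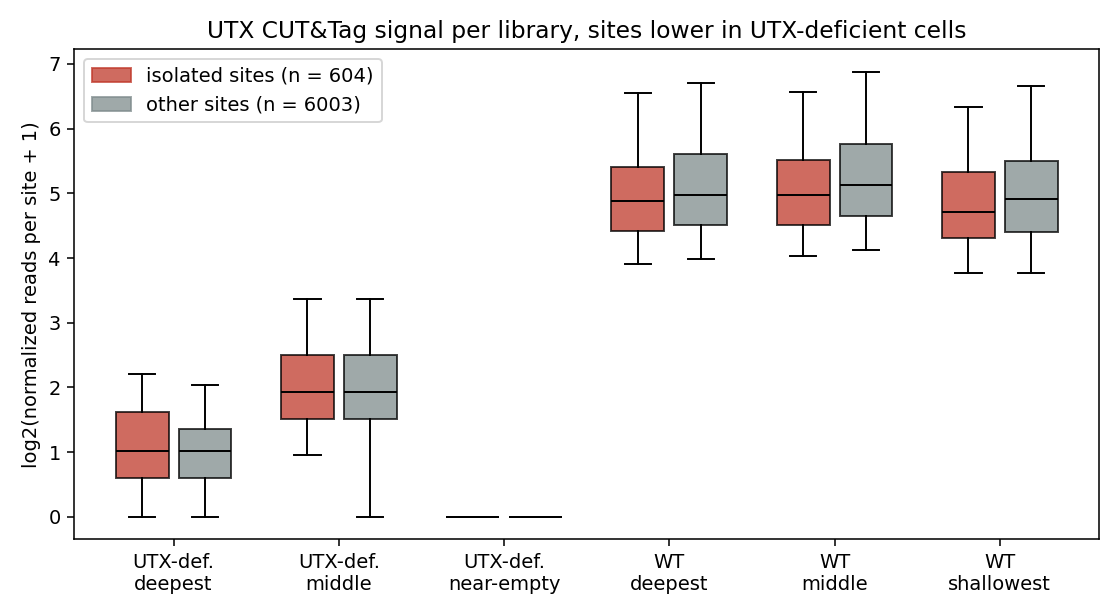
Normalized reads per site on a log2(value + 1) scale in each recovered library, for isolated (red) and other (grey) sites lower in UTX-deficient cells. Boxes give quartiles with the median, and whiskers the 5th and 95th percentiles. Both kinds of site are far below WT in the UTX-deficient libraries, the near-empty library is at 0, and isolated sites lie slightly below other sites in each WT library.

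Isolated sites were weaker than other sites in WT cells. In the well-covered UTX-deficient libraries they held a slightly larger share of that signal, a difference that 2 against 3 libraries cannot decide. The mean over isolated sites was 0.878, 0.851 and 0.871 of the mean over other sites in the 3 WT libraries, all below 1. In the deepest and middle UTX-deficient libraries the same ratio was 1.30 and 1.03, above each WT ratio. The difference in log2 was 0.42 between 2 and 3 libraries (exact permutation test, two-sided, p = 0.2). That is the smallest p this design allows, and any full separation of the groups gives it. Put as a share of the WT mean, the deepest UTX-deficient library kept 4.05% at isolated and 2.69% at other sites, and the middle one kept 10.5% and 8.85%. The median log2 fold of lower sites in the authors' deposited table was -3.20 for isolated sites (quartiles -3.78 and -2.66) and -3.54 for other sites (quartiles -4.10 and -2.95). The median WT concentration, the log2 of mean normalized reads, was 4.78 for isolated and 4.96 for other sites in the authors' deposited table.

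The kept share was compared at like WT levels, since weaker sites had smaller folds throughout. In the weakest quartile of WT level the deepest UTX-deficient library kept 6.46% at 188 isolated sites and 4.53% at 1465 other sites, and the middle library kept 12.0% and 9.46%. In the strongest quartile these values were 2.73% at 112 isolated and 2.11% at 1540 other sites in the deepest library, and 8.82% and 8.44% in the middle one. Isolated sites were higher in each of the 4 quartiles in both libraries. Within 1 kb of a start the deepest library kept 4.12% at 395 isolated and 2.49% at 3083 other sites, and the middle library 10.4% and 8.42%. Farther than 10 kb from any gene end, and off listed starts, the deepest library kept 4.59% at 79 isolated and 3.16% at 984 other sites, and the middle one 11.0% and 10.1%. Sites of 1 library are not replicates, and these kept shares were not tested. The size of the kept signal differed more between these 2 libraries than between isolated and other sites.

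**Figure D3:**
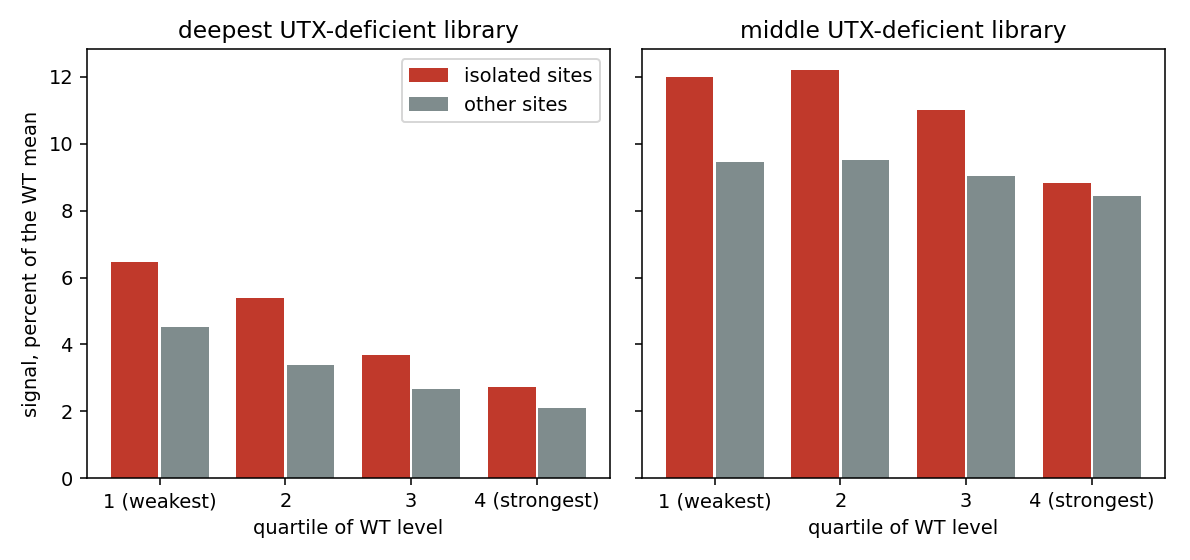
Signal in the deepest (left) and middle (right) UTX-deficient library as a percent of the mean WT signal, for isolated (red) and other (grey) sites in quartiles of WT level. The bars are sums over sites within 1 library and have no error bar. Isolated sites are above other sites in each quartile, from 6.46% against 4.53% in the weakest to 2.73% against 2.11% in the strongest in the deepest library.

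The strongest isolated sites included those of Gsk3b, Hspa8 and Kctd9. At Gsk3b, a kinase of Wnt and insulin signalling, the site on chromosome 16 from 38088792 to 38089192 held 3, 15 and 0 reads in UTX-deficient cells and 236, 194 and 124 in WT. At Hspa8, the constitutive heat shock chaperone, it held 9, 12 and 0 reads in UTX-deficient cells and 227, 165 and 152 in WT. At Kctd9 it held 7, 15 and 0 reads in UTX-deficient cells and 223, 163 and 149 in WT. Every well-covered UTX-deficient library was below every WT library at these sites, as at all 604 lower isolated sites and at all 6003 recovered lower sites elsewhere on the same chromosomes. The authors' deposited table gave log2 folds of -4.17 at Gsk3b (FDR 3.97e-07), -4.54 at Hspa8 (FDR 8.02e-30) and -4.23 at Kctd9 (FDR 1.55e-13). The middle of each lay 9, 159 and 226 bp from an end of its gene. The highest WT level of any isolated site, 7.55 against 7.53 at Gsk3b in the authors' deposited table, was at 4932412D23Rik, a long noncoding RNA gene named after its values were seen. Its site on chromosome 16 from 42875331 to 42875731 held 13, 24 and 0 reads in UTX-deficient cells and 220, 186 and 147 in WT. Ppp2r3d, which encodes a regulatory subunit of protein phosphatase 2A, Hbp1, Lnpep, Hnrnpa2b1, an RNA-binding protein, and Zfp438, a zinc finger gene, completed the 8 strongest at genes with a name rather than a number, with WT concentrations of 7.22 to 7.12 in the authors' deposited table. The Ppp2r3d site lay 51070 bp from that gene, but 124 bp from a listed start of the numbered gene LOC108167694.

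The 8 most remote named isolated sites were all within 1 kb of a listed start. Their WT concentrations in the authors' deposited table ran from 4.05 at Mettl25 to 5.85 at Ptp4a1, against a median of 4.78 over the lower isolated sites. Tram2, Lmbrd1 and Ptp4a1 were above that median and the others below it. Mettl25 on chromosome 10 (105841091 to 105841491) held 2, 3 and 0 reads in UTX-deficient cells and 20, 22 and 8 in WT, and the authors' deposited table lists its fold as -2.20 on the log2 scale (FDR 0.0374). Manea, whose nearest site was 3989090 bp away, held 5, 5 and 0 reads in UTX-deficient cells and 27, 20 and 12 in WT. Mzt1, at 3936811 bp, held 1, 3 and 0 reads in UTX-deficient cells and 38, 23 and 20 in WT. At the remote sites every well-covered UTX-deficient library was below every WT library, as at all lower isolated sites. Itprid2, Hmmr, Tram2, Lmbrd1 (a lysosomal membrane protein of cobalamin transport) and Ptp4a1 (a tyrosine phosphatase) followed, with nearest sites 3742977 to 3489855 bp away. Tram2 and Lmbrd1 were each other's nearest site. The strongest of the 8 was Ptp4a1, with 8, 3 and 0 reads in UTX-deficient cells and 73, 63 and 37 in WT.

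The largest decrease was at Skil, a repressor of SMAD signalling, with 1, 2 and 0 reads in UTX-deficient cells and 143, 120 and 74 in WT, listed at -5.94 (log2) by the authors' deposited table. Its site was 492409 bp from the nearest other site. Next in the authors' deposited table came Cdh1 (E-cadherin) at -5.06, Dcaf13 and Plag1, a zinc finger transcription factor, at -5.03 each, and Ube2g1, a ubiquitin-conjugating enzyme, at -4.99. The Cdh1 site was inside the gene, 26884 bp from an end, with 1, 1 and 0 reads in UTX-deficient cells and 53, 54 and 38 in WT. Such folds rest on very few UTX-deficient reads. The smallest decreases at genes with a name were at Zfp788 (-1.66), Vti1a (-1.78), Pdhx (-1.81), Plxnc1 (-1.82) and Slc24a3 (-1.92) in the authors' deposited table, where the numbered gene Gm35722 stands between the first pair at -1.71. At Zfp788, a zinc finger gene, the reads were 5, 11 and 0 in UTX-deficient cells and 32, 25 and 16 in WT.

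Over the 7 gene lists, 10 of 101 genes with a site had an isolated one (9.90%), close to the 11.8% over all genes with a site, so the lists did not stand apart by these counts. Of 24 progenitor genes, 21 had a site and 1, Kit, an isolated one, and of 24 T cell receptor signalling genes 23 had a site and 2, Cblb and Nfatc2, an isolated one. Over all genes with a site on chromosomes 1 to 19, the isolated ones numbered 609 of 5145. Of 24 effector genes, 12 had a site and 1, Tox, an isolated one, and of 26 chromatin genes 22 had a site and 1, Arid1b, an isolated one. Among 15 ubiquitin and protein turnover genes 10 had a site and 3, Ube3a, Cul3 and Fbxw7, an isolated one, and among 16 genes of RNA and translation 13 had a site and 2, Celf2 and Cnot1, an isolated one. None of 15 developmental genes had a site. Of 9 genes that mark CD8 T cells, 7 had a site, none of it isolated, and none of the 5 markers each of B cells, myeloid cells, natural killer cells and pancreas had one.

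Sites of these list members lay either near a gene end or far from one. Cblb, a ubiquitin ligase that restrains T cell activation, had its site 223 bp from a gene end, with 7, 13 and 0 reads in UTX-deficient cells and 77, 53 and 48 in WT. Cul3, a scaffold of ubiquitin ligases, held 4, 10 and 0 reads in UTX-deficient cells and 177, 126 and 103 in WT, 248 bp from a gene end. Ube3a, a ubiquitin ligase, and Cnot1, the scaffold of the deadenylase complex, also had their sites within 1 kb, 152 and 493 bp from a gene end. For these the authors' deposited table lists -2.46 and -4.51 on the log2 scale. The site assigned to Fbxw7, a substrate receptor of ubiquitin ligases, lay 148048 bp outside the gene and held 2, 3 and 0 reads in UTX-deficient cells and 100, 62 and 46 in WT. The site assigned to Kit, the stem cell factor receptor, lay 135199 bp outside the gene, with 3, 1 and 0 reads in UTX-deficient cells and 23, 23 and 15 in WT. Tox, a transcription factor of exhausted T cells, had an internal site 20823 bp from an end, with 2, 4 and 0 reads in UTX-deficient cells and 33, 36 and 18 in WT. Arid1b, a chromatin remodeller subunit, Nfatc2, a transcription factor of T cell activation, and both Celf2 sites were internal too, 157436, 10633, 166616 and 126127 bp from a gene end. The Nfatc2 site was nevertheless 659 bp from a listed start of that gene. Whether a remote site acts on the gene it was assigned to was not tested.

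**Figure D4:**
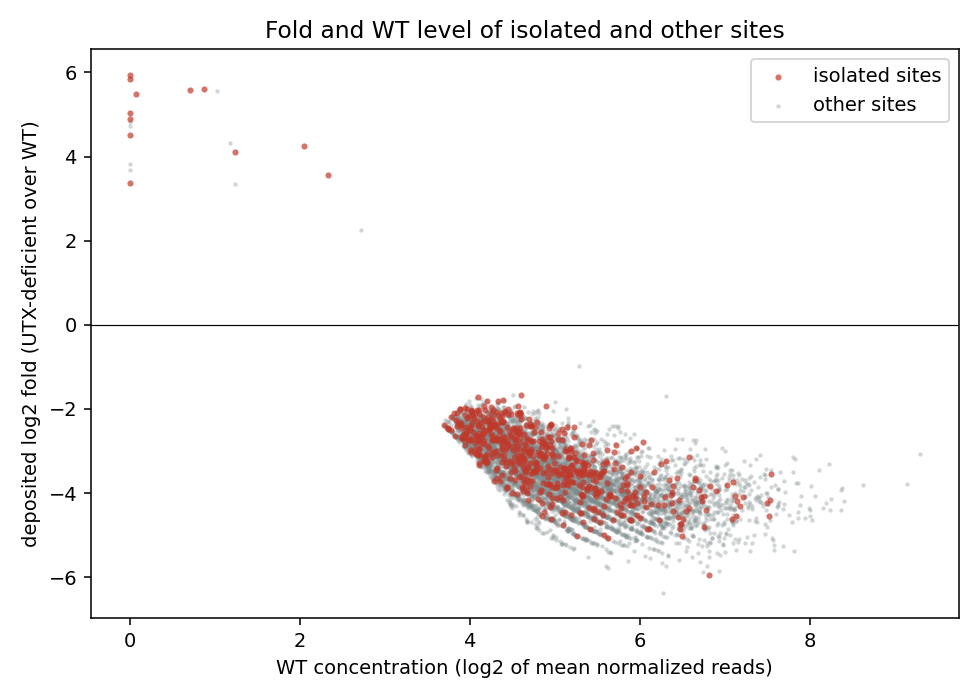
Deposited log2 fold (UTX-deficient over WT) against WT concentration (log2 of mean normalized reads) for isolated (red) and other (grey) sites on chromosomes 1 to 19, with 1 other site of a fold over 10 left out. Isolated sites lie among the other sites below 0, mostly at low WT levels, and make up 12 of the 21 sites above 0, which all have a WT concentration under 3.

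The 12 isolated sites that were higher in UTX-deficient cells made up most of the 21 such sites in the authors' deposited table, which lists their log2 folds from 3.37 at Elavl4 to 5.93 at Auts2. They were remote from genes, with 11 of 12 farther than 10 kb from any gene end, 1 overlapping its assigned gene and 8 with no protein-coding gene centred within 250 kb. None lay within 1 kb of a listed start, on the chromosomes where starts could be placed. The near-empty library held 118 reads in them and 0 in the 604 lower sites. In the same 12 sites the deepest and middle UTX-deficient libraries held 46 and 34 reads, and the WT libraries 25, 16 and 17. After scaling, the near-empty library supplied 94.0% or more of the UTX-deficient group's normalized signal at every one. At the site assigned to Antxr2, a receptor of anthrax toxin, there were 1, 3 and 28 reads in UTX-deficient cells and 0, 1 and 3 in WT. At the site assigned to Htr1a, a serotonin receptor, there were 3, 1 and 17 reads in UTX-deficient cells and 1, 2 and 0 in WT. At the site assigned to Efr3a there were 0, 0 and 13 reads in UTX-deficient cells and 0 in every WT library. No other UTX-deficient library held more than 9 reads at any of the 12, and no WT library more than 10. The near-empty library held the most reads of all 6 at 6 of the 12, before any scaling. What part that library plays in the deposited calls was not tested, since it was left out only of computations on recovered reads.

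Without the near-empty library, the well-covered UTX-deficient libraries were both above every WT library at 3 of the 12 sites, those assigned to Elavl4, an RNA-binding protein of neurons, Auts2 and Nol4. Elavl4 held 7 and 8 reads in these UTX-deficient libraries and 1, 0 and 1 in WT, a limma log2 difference of 1.97. Auts2 held 9 and 3 reads in these UTX-deficient libraries and 1, 1 and 0 in WT, a difference of 1.58. Nol4 held 5 and 3 reads in these UTX-deficient libraries and 1, 1 and 1 in WT, a difference of 0.86. The WT reads at all 3 sites were under the floor of 3 reads, and the sites were chosen as higher from the same libraries, so the differences are given with no p. At Rapgef2 the difference was -1.07, from 3 and 0 reads in these UTX-deficient libraries and 3, 2 and 2 in WT, each at or under that floor, so no direction is read from it. The 8 others, Adra2a, Antxr2, Efr3a, G6pd2, Htr1a, Kazn, Mir344b and Tmem161b, had log2 differences between -0.33 and 0.32.

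**Figure D5:**
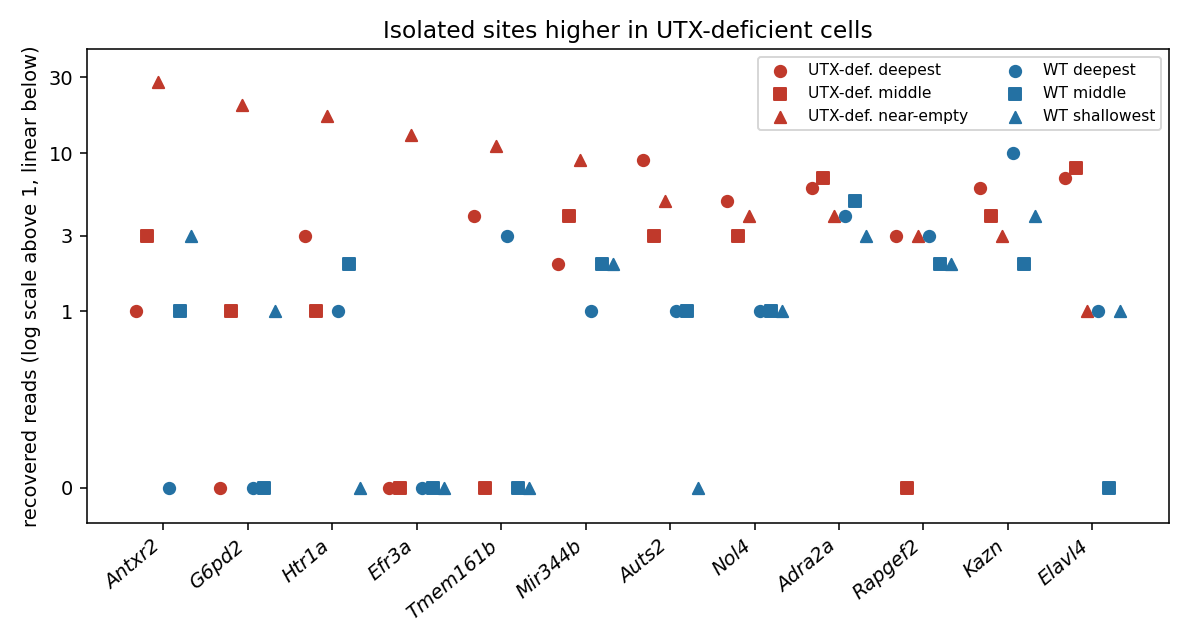
Recovered reads in each library at the 12 isolated sites higher in UTX-deficient cells in the authors' deposited table, labelled by assigned gene, on an axis that is logarithmic above 1 and linear below. Red points are UTX-deficient and blue points WT libraries, from the deepest to the shallowest. The near-empty UTX-deficient library (red triangles) is highest at 6 sites, and at Elavl4, Auts2 and Nol4 the other UTX-deficient libraries are above WT as well.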

How the data were processed

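UTX CUT&Tag was measured in 3 UTX-deficient and 3 WT samples, grouped by the genotype in the labels, and the authors deposited 1 table comparing them. The submitters' processing notes name Bowtie2, MACS2, DiffBind, Picard, SAMtools, cutadapt and FastQC, with build mm10, but no versions or roles, and pooling before peak calling is not stated. IgG control libraries of the protocol were not analysed here. Column names per the file headers are those of DiffBind, with 401 bp sites. Concentration (mean normalized reads) and fold are log2 values as deposited by the authors, the fold negative where WT is higher. The p-values and FDRs are the authors' deposited values, each FDR being under 0.05, and their ratio gives 8293 tests behind the table.

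Members and gene lists were chosen with earlier results of these data known. Named sites are the 8 with the highest WT concentration, the 8 with the farthest nearest site, the 5 with the largest and the 5 with the smallest decrease, each site higher in UTX-deficient cells, the 3 just inside and just outside 250 kb, and each site at a gene of a list; numbered gene models were skipped in ranks. Gene ends and symbols come from RefSeq (GRCm38.p6), where 609 of 616 members matched. Starts and promoter sequences come from the RefSeq promoter table of that build, which lists 16457 of 20154 protein-coding genes on the chromosomes used; starts on chromosome 18 were not used here. Distances run from the middle of a site.

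Each concentration, taken out of the log and multiplied by 3, equals the 3 libraries' whole reads weighted by what 1 read is worth in each; these worths were found from differences between sites, which gave the reads. UTX-deficient sums had exactly 1 solution at 6739 sites and WT sums at 6737, among them all members. Where the near-empty library held reads, the others were assumed to add fewer than 190 normalized reads. Sums shifted at random were solved in 0% of cases in UTX-deficient cells and in 0.5% in WT. On 2 simulated tables, each built with depths near those recovered and a near-empty library, at least 6736 sites were solved and 0 wrongly. Since the simulation assumes that library, it cannot show whether the real one was near-empty. PCR copies without identifiers are no separate molecules, so floors cover counting error only. Recovered reads were tested on log2(normalized reads + 1) with limma 3.58.1 in R 4.3.3, with a mean trend, no filter and Benjamini-Hochberg adjustment over 6737 sites; this was also run on simulated data. Limma's adjusted p-values per site are not printed, since each site had been chosen on the same libraries. Means per library were compared by exact permutation with scipy 1.17.1.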

Additional observations from a re-analysis of the deposited data

How the results depend on the processing

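No paired analysis was possible because the deposited columns are group means and the recovered libraries carry no replicate number. Alternatives marked as added were chosen after seeing the data. With 100 kb between starts the rule kept 1551 sites, 1536 of them lower in UTX-deficient cells, and with 500 kb 285 sites, 273 of them lower; restricting neighbours and members to rows with an FDR under 0.001 gave 649 sites. At an FDR under 0.001, 395 of the isolated sites were lower and 4 higher (the second count added). Together these were 64.8% of isolated sites, against 73.7% of other sites and 72.8% of the whole table. The 395 lower sites had a median deposited log2 fold of -3.56. With 500 kb that median was -3.07, and the WT ratio of isolated over other sites was 0.826 (added) against 0.867. The 12 higher sites numbered 15 with 100 kb and 12 with 500 kb (both added). Trimmed-mean scaling left 2 lower and 7 higher limma calls at isolated sites, against 99 lower and 12 higher over all 6737 sites. That scaling assumes that most sites do not change, while the listed sites are those called different in the authors' comparison. Which scaling fits these libraries was not tested, so the limma calls depend on that choice. Leaving out 1 library at a time gave 604 to 605 lower and 3 to 12 higher limma calls at isolated sites, the 3 without the near-empty library. Over all sites such calls numbered 6711 to 6716 lower and 5 to 20 higher. The difference in mean normalized reads over isolated sites, UTX-deficient minus WT, was -32.8 to -17.0 against -22.7, and without the near-empty library it was -32.8. Over the lower sites alone it was -34.4 (added). Without the near-empty library the limma difference turned to -0.33 at Kazn and to -1.07 at Rapgef2. The cause of these changes was not tested. Other pseudocounts, a minimum mean of 10 normalized reads and other definitions of gene distance kept the counts within 1.5 times. Depth limits the UTX-deficient side, where a median of 2 and 3 reads per site in the well-covered libraries leaves small differences in kept signal undetectable at single sites.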
